A study of Mus musculus with 18 samples.

Results

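The glucocorticoid receptor gene Nr3c1, the corticosteroid-activating enzyme gene Hsd11b1 and 7 genes known as targets of the receptor were followed in mouse hepatocytes of both zones of the liver lobule across feeding and fasting. The targets were Fkbp5, Tsc22d3, Sgk1, Zbtb16, Klf9, Errfi1 and Dusp1. These 9 genes were picked by name, with earlier results of these data known, out of 28030 genes in the deposited table. All 9 passed the filter on low counts that left 12477 genes for testing. Hepatocytes came from wild-type C57BL/6J male mice aged 12 weeks on normal chow, and were isolated with digitonin, a detergent that permeabilises the cells of one end of the lobule so that those of the other end can be collected. Cells near the central vein are called pericentral and cells near the portal tract periportal. Before that, every animal had 3 days of training with 16 h of fasting and 8 h of daytime feeding. After the training, every group is recorded with 4 h of refeeding, with food and water containing 20% sucrose. Fed mice were killed at clock hour 13, 8 h fasted mice at hour 21 of the same day, and 24 h fasted mice at hour 13 of the next day. The 6 groups of zone and state held 3 libraries each, 18 in all. No label says whether 2 libraries came from separate mice, so p-values here measure the spread between these libraries, which may be partly technical.

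The glucocorticoid receptor is a ligand-activated transcription factor that waits in the cytoplasm in a complex with the heat shock protein Hsp90 and its co-chaperones. Corticosterone, the main glucocorticoid of mice, releases it to the nucleus, where it binds DNA elements made of a pair of inverted hexamers and changes the transcription of nearby genes. In liver it is known for raising genes of gluconeogenesis and amino acid breakdown during fasting. The enzyme encoded by Hsd11b1 regenerates active hormone inside hepatocytes from its inactive keto form. The target Fkbp5 feeds back on the pathway, as it encodes a co-chaperone that lowers the receptor's affinity for hormone. Tsc22d3 encodes GILZ, a leucine zipper protein that restrains inflammatory transcription factors.

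Library totals ran from 18359911 to 26384358 estimated counts. Levels are given in CPM, counts scaled by each library's TMM-adjusted total in the usual way, as group mean ± SD (n = 3) or for each library in replicate order 1, 2, 3. Summed levels of 5 hepatocyte genes lay between 57400 and 185000 CPM. In the zone difference averaged over the states, all 8 pericentral and all 8 periportal marker genes were called, beside 20.3% of all genes tested. In single states, those not called were Ass1 when fed (edgeR adjusted p 0.0504), Pck1 at 8 h (0.17), and Glul (0.0623), Pck1 (0.813) and Ass1 (0.111) at 24 h. Summed markers of Kupffer cells and leukocytes (0.444 to 28.9 CPM), of endothelial cells (4.22 to 45.5 CPM) and of stellate cells (1.84 to 26.3 CPM) were low throughout. The 7 bile duct genes summed to 20.3 to 58.2 CPM. Of them Epcam was at 0 in all 18 libraries and Krt19 at most 0.506 CPM, but Krt7 (11.1 to 20.2 CPM), Spp1 (5.39 to 25.1 CPM) and Sox9 (2.42 to 17.4 CPM) were present in each. On average over the states Sox9 (log2 1.02, adjusted p 3.14e-06) and Spp1 (1.14, adjusted p 0.000305) were higher in periportal cells. For all 4 of these lists every periportal fed library was above every pericentral fed library, and their part in the zone differences was not tested. In bulk samples of this kind, fewer cells of a type and less RNA per cell cannot be told apart. A pair of libraries stood apart on the genes described here. Pericentral 24 h replicate 2 had low Tsc22d3 and Dusp1, low Glul, a pericentral marker (111 CPM, where the other 8 pericentral libraries held at least 552 CPM), and the lowest sum of immediate early and heat shock genes (155 CPM against 435 and 342 in its group). Periportal 8 h replicate 1 had Fkbp5 and Zbtb16 near fed levels and the lowest sum of Kupffer cell markers (0.444 CPM against 12.2 and 17.4). Its summed periportal markers were 9650 CPM, against 17100 and 16000 in its group and 8630 to 10600 in periportal fed libraries. Its summed pericentral markers were the highest of its group (1270 CPM against 1120 and 528). That library also had the highest sum of immediate early and heat shock genes of all 18 libraries (650 CPM against 457 and 247 in its group). Calls that change without them are given below.

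With fasting, 6 of the 7 targets rose in at least 1 of 4 comparisons, Dusp1 did not pass in any, and the receptor's own transcript fell in periportal cells. The share of all genes that rose in at least 1 of the 4 was not computed, so each comparison is given with its own share. A gene was called when its adjusted p (edgeR quasi-likelihood test, Benjamini-Hochberg over all genes tested) was under 0.05. In pericentral cells, 4 of the 9 genes were called at 8 h against fed (Sgk1, Zbtb16, Klf9 and Errfi1, all higher), beside 13.8% of all genes tested (7.27% higher and 6.57% lower). At 24 h against fed, 4 were called there (Fkbp5, Sgk1, Klf9 and Errfi1, all higher), beside 21.8% of all genes (10.8% higher and 11.1% lower). In periportal cells, 4 were called at 8 h (Fkbp5, Zbtb16 and Klf9 higher, Nr3c1 lower), beside 14.4% of all genes (7.56% higher and 6.85% lower). At 24 h, 7 were called in periportal cells (Fkbp5, Tsc22d3, Sgk1, Zbtb16, Klf9 and Errfi1 higher, Nr3c1 lower), beside 19.6% of all genes (9.59% higher and 10% lower). The median log2 fold change of the 9 genes ran from 0.74 (8 h, periportal) to 1.09 (24 h, pericentral), where that of all genes tested ran from 0.00 to 0.01. The 8 h and 24 h comparisons of a zone share their fed libraries and are not independent of each other, and the 8 h groups also differ from the fed groups in the hour of the day. Beside these counts, 11 of 17 clock genes tested were called at 8 h in pericentral cells and 12 of 17 in periportal cells, against 4 and 5 at 24 h. For the 8 h values, fasting and clock hour cannot be told apart. Groups without any overlap were more common than calls. In pericentral cells 6 of the 9 genes had no overlap between fed and 8 h libraries, beside 32.2% of all genes, and 5 between fed and 24 h, beside 38.7%. In periportal cells 7 had none at 8 h, beside 31.6% of all genes, and 7 at 24 h, beside 36.9%. Leaving out both libraries that stood apart gave 5 and 5 calls in pericentral cells and 4 and 7 in periportal cells, at 8 h and 24 h in turn. The shares of all genes called in that fit are not given here.

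**Figure D1:**
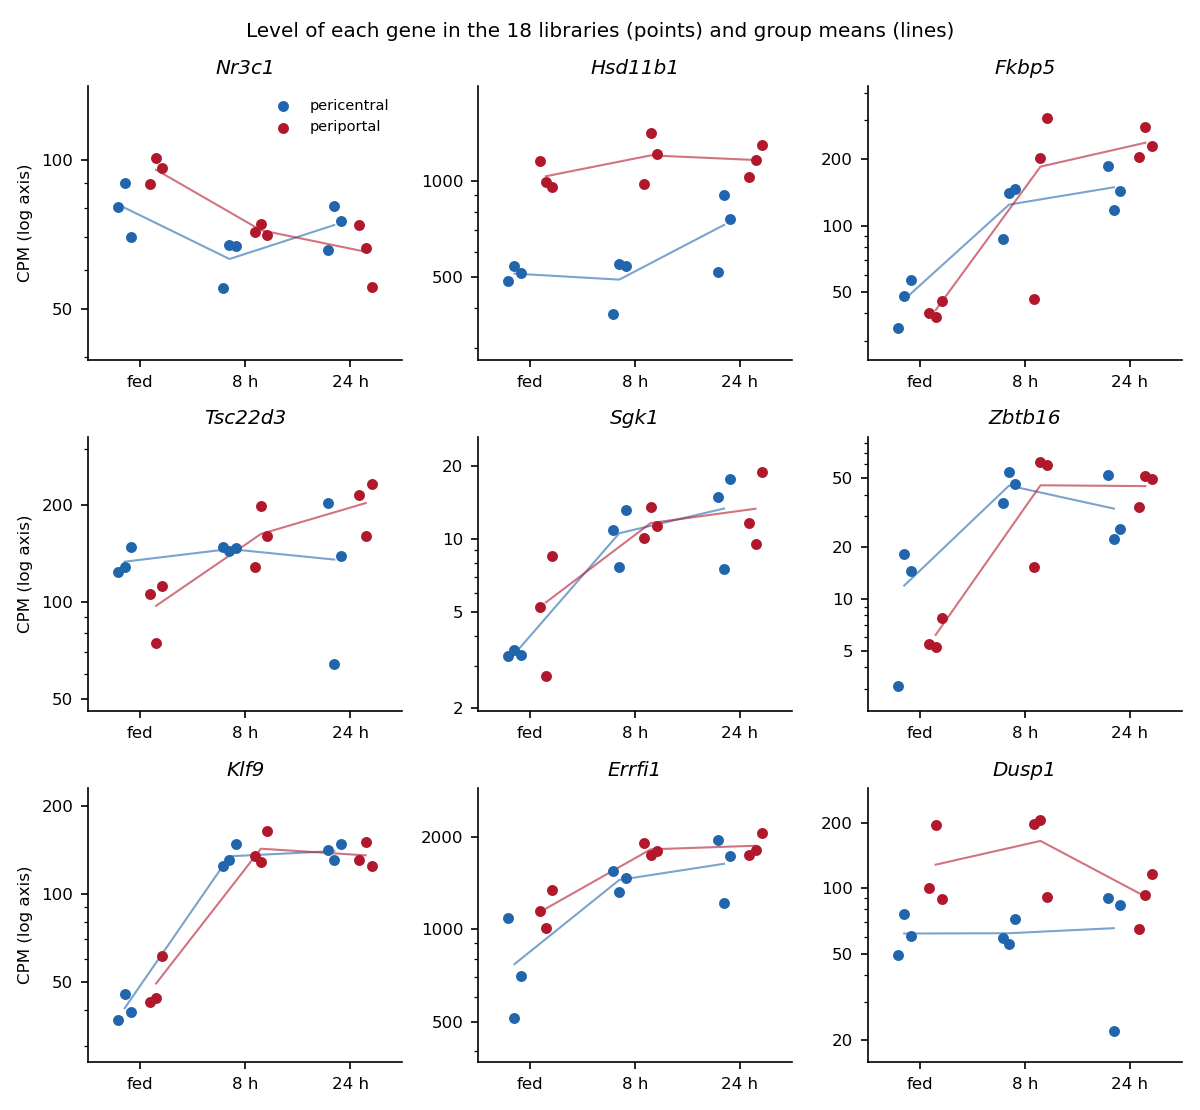
Level of each of the 9 genes in CPM on a log axis, by hours of fasting, in pericentral (blue) and periportal (red) libraries. Points are single libraries and lines join group means. Klf9 is low in all 6 fed libraries (37 to 61.2 CPM) and high in all 12 fasted ones (125 to 165 CPM), while Hsd11b1 separates the zones instead.

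From 8 h to 24 h, 0 of the 9 genes were called by edgeR in either zone, beside 9.71% of all genes in pericentral cells and 7.46% in periportal cells. At an unadjusted p under 0.05 there was 1 gene in pericentral cells (Hsd11b1) and 0 in periportal cells. DESeq2 called 1 and 0, and limma-voom 0 and 0. This step also goes from clock hour 21 to hour 13, so fasting and hour cannot be told apart in it. Its intervals were wide. For Fkbp5 the 95% interval of the log2 difference was -0.72 to 1.25 in pericentral and -0.63 to 1.34 in periportal cells.

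**Figure D2:**
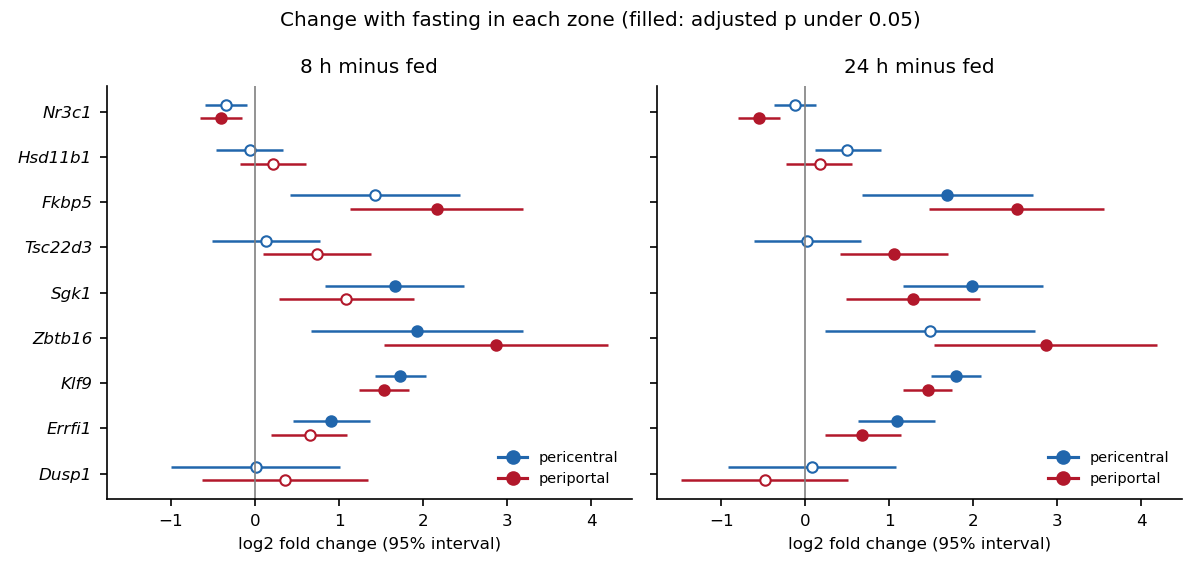
Log2 fold change of each gene against fed at 8 h (left) and 24 h (right), in pericentral (blue) and periportal (red) cells, with 95% intervals. Filled points have an adjusted p under 0.05. Klf9 is filled in all 4 comparisons, and Nr3c1 is the single gene with filled points below 0.

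Nr3c1 (ENSMUSG00000024431, chromosome 18) encodes the receptor itself. Pericentral libraries held 80.5, 89.8 and 70 CPM fed, 55, 67.3 and 66.9 CPM after 8 h, and 65.8, 80.6 and 75.3 CPM after 24 h. Periportal libraries held 89.4, 101 and 96.5 CPM fed, 71.4, 74.3 and 70.7 CPM after 8 h, and 74, 66.3 and 55.4 CPM after 24 h. All 3 periportal fed libraries were above all 6 periportal fasted ones, while in pericentral cells the fed and 24 h libraries overlapped. In periportal cells Nr3c1 fell by 0.40 on the log2 scale at 8 h (SE 0.12, adjusted p 0.0297) and by 0.55 at 24 h (SE 0.12, adjusted p 0.00381), from 95.5 ± 5.65 to 65.2 ± 9.36 CPM. The pericentral values were -0.35 at 8 h (adjusted p 0.0641) and -0.12 at 24 h (adjusted p 0.537). The periportal 8 h call was lost without periportal fed replicate 2 or 3, or without any one of the periportal 8 h libraries (adjusted p 0.0619 to 0.0998). The pericentral 8 h value was called without pericentral fed replicate 3 (adjusted p 0.0383) or periportal 24 h replicate 3 (adjusted p 0.0459). The whole range of Nr3c1 over the 18 libraries was 1.83-fold, the narrowest of the 9 genes. Ordered by mean, the groups ran from pericentral 8 h up to periportal fed, and every pair of neighbours in that order overlapped.

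Around the receptor, the transcripts of its chaperone machinery fell. Of 16 genes of receptor chaperones and coregulators, all tested, 8 fell and 1 rose at 8 h in pericentral cells, and 9 fell and 1 rose in periportal cells, where 6.57% and 6.85% of all genes tested were called lower. The median log2 fold change of the list was -0.50 and -0.54, beside 0.01 for all genes tested in both zones. In pericentral cells the leading falls were in Hspa8 (-1.81, adjusted p 5.48e-05), Hsp90aa1 (-1.64, adjusted p 0.000541) and Stip1 (-1.47, adjusted p 2.08e-05). In periportal cells they were in Hsp90aa1 (-1.44, adjusted p 0.00177), Dnaja1 (-1.36, adjusted p 0.000106) and Hspa8 (-1.26, adjusted p 0.00114). Hspa8, Dnaja1, Stip1 and Hsp90aa1 encode chaperones and a scaffold that bring the receptor into its hormone-binding form. The gene that rose in both zones was the coactivator Ncoa2 (0.49 and 0.54, adjusted p 0.00487 and 0.00267). At 24 h, 6 fell and 2 rose in pericentral cells, and 5 fell and 1 rose in periportal cells, beside 11.1% and 10% of all genes called lower, with list medians of -0.16 and -0.19. Hsp90aa1 fell from 562 ± 75.6 to 177 ± 33.3 CPM in pericentral cells at 24 h (log2 -1.67, adjusted p 0.000367) and from 377 ± 99.4 to 194 ± 79.5 CPM in periportal cells (-0.96, adjusted p 0.0162). That periportal call was lost without periportal fed replicate 3 or periportal 24 h replicate 1 or 2 (adjusted p 0.0661 to 0.0792). Stip1 and Fkbp4, the co-chaperone that favours nuclear entry of the receptor, also fell in both zones (Stip1 -1.19 and -0.88, Fkbp4 -0.93 and -0.89). Those that rose at 24 h were Ncoa2 (0.46) and the corepressor Ncor1 (0.45) in pericentral cells and the acetyltransferase gene Crebbp (0.70) in periportal cells. The Crebbp call was lost without periportal fed replicate 1 or 2 or periportal 24 h replicate 3 (adjusted p 0.11 to 0.168). Between zones, 1 of the 16 was called on average over the states, beside 20.3% of all genes. In single states 8.01%, 7.14% and 4.17% of all genes were called (fed, 8 h and 24 h), and of the 16 there were 0 in any single state by edgeR (unadjusted p was under 0.05 for 3, 2 and 0 of them in fed, 8 h and 24 h, and neither DESeq2 nor limma-voom called any).

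Hsd11b1 (ENSMUSG00000016194, chr1:193221634-193264075 in GRCm38, minus strand), the hormone-regenerating reductase, was a periportal gene in each state. Pericentral libraries held 485, 540 and 514 CPM fed, 385, 548 and 541 CPM after 8 h, and 519, 905 and 760 CPM after 24 h. Periportal libraries held 1150, 992 and 955 CPM fed, 978, 1410 and 1210 CPM after 8 h, and 1030, 1160 and 1290 CPM after 24 h. Every periportal library was above every pericentral library. The periportal excess was 2.01-fold when fed (log2 1.01, SE 0.19, adjusted p 0.00271) and 2.44-fold at 8 h (log2 1.29, SE 0.19, adjusted p 0.000506). At 24 h it was 1.59-fold (log2 0.67, SE 0.19) and missed the threshold (adjusted p 0.057). No label pairs the libraries, and in that state those of the same number deviated together only weakly (r 0.12, 0.17 and 0.15). With the replicate number as a block over all 6 groups the value was 0.69 and passed (adjusted p 0.0223). It also passed without pericentral 8 h replicate 1 (adjusted p 0.0403), periportal 8 h replicate 1 (0.0396) or pericentral 24 h replicate 2 (0.0226). With fasting, the pericentral level was 728 ± 195 CPM at 24 h against 513 ± 27.5 CPM fed, which did not pass (log2 0.50, adjusted p 0.0664) but did without pericentral 24 h replicate 1, whose level was that of fed cells (0.69, adjusted p 0.0135). The annotation places 3 other genes over Hsd11b1, among them Lamb3 on the other strand. Whether reads were counted by strand is not given in the sources used here, so reads of these genes may be mixed.

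The gene whose pattern was most like that of Hsd11b1 was Alb, which encodes albumin (Pearson r 0.98 of log2 CPM over the 18 libraries, among 8014 genes compared), and the next was Gc, which encodes the vitamin D carrier (r 0.97). The likeness held inside each zone (r 0.97 over 9 pericentral and 0.94 over 9 periportal libraries) and for deviations from group means (r 0.93). In fed cells Alb was at 51500 ± 2400 CPM on the pericentral side and 106000 ± 9600 CPM on the periportal side. Its periportal excess was 1.04 fed, 1.37 at 8 h and 1.01 at 24 h on the log2 scale (adjusted p 0.00402, 0.000562 and 0.00806). The 24 h call for Alb was lost without pericentral 24 h replicate 1 (adjusted p 0.0525) or periportal 24 h replicate 3 (0.0547). All 18 points share their library scaling, in which Alb alone took 40000 to 160000 CPM, and the part of that share in the Hsd11b1 difference was not tested. With scaling factors computed without the 20 most abundant genes, the Hsd11b1 calls were the same as above.

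**Figure D3:**
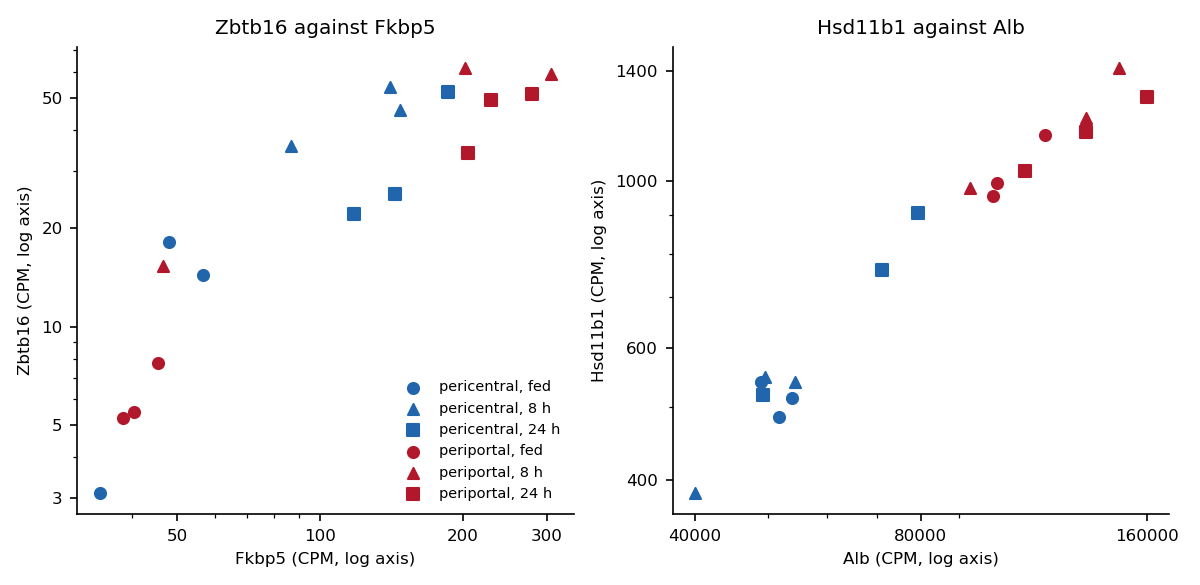
Left, Zbtb16 against Fkbp5, and right, Hsd11b1 against Alb, in CPM on log axes for the 18 libraries, with colour for zone and symbol for state. On the left, periportal 8 h replicate 1 (46.7 CPM Fkbp5, 15.3 CPM Zbtb16) lies among the fed libraries. On the right, the 9 periportal libraries lie above and to the right of the 9 pericentral ones.

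Other genes of hormone supply and breakdown gave a mixed picture. Of 7 genes listed, 6 were tested, and the inactivating enzyme gene Hsd11b2 was at 0 in 12 libraries and at most 0.0825 CPM. Serpina6, which encodes the corticosteroid-binding globulin of plasma, was pericentral on average over the states (log2 -0.96 periportal minus pericentral, adjusted p 9.47e-06), the reverse of Hsd11b1. In fed cells its pericentral mean was 283 ± 29.8 CPM and its periportal mean 176 ± 28.7 CPM, and at 24 h these were 336 ± 76.4 and 112 ± 22.1 CPM. In the same average, the steroid-reducing Hsd3b5 (-1.90, adjusted p 0.0072) and the steroid-hydroxylating Cyp3a11 (-0.68, adjusted p 0.00284) were lower in periportal cells, and the reductase gene Srd5a1 was higher (0.70, adjusted p 0.00224). At 8 h, 1 of the 6 rose and 2 fell in pericentral cells, and 1 rose and 1 fell in periportal cells, beside 13.8% and 14.4% of all genes called in either direction. The one that rose was H6pd, which encodes the enzyme that supplies NADPH to the reductase in the endoplasmic reticulum. It went from 310 ± 12.4 to 626 ± 134 CPM in pericentral cells (log2 1.02, adjusted p 0.000419) and from 297 ± 14.8 to 571 ± 59.4 CPM in periportal cells (0.94, adjusted p 0.000893). Serpina6 fell at 8 h in both zones (-0.79 and -0.71, adjusted p 0.0112 and 0.0204), and the reductase gene Akr1d1 fell in pericentral cells (-0.69, adjusted p 0.00974). The pericentral calls were lost without pericentral 8 h replicate 1 (adjusted p 0.0531 for Serpina6 and 0.0517 for Akr1d1) and, for Serpina6, without replicate 2 (0.0522). The periportal Serpina6 call was lost without periportal fed replicate 1 (0.106) or periportal 8 h replicate 3 (0.0928). At 24 h against fed, 0 were called by edgeR in pericentral cells, beside 21.8% of all genes. There 3 had an unadjusted p under 0.05, DESeq2 called 1 and limma-voom 2. In periportal cells Serpina6 alone was called, and it fell (-0.65, adjusted p 0.0261), beside 19.6% of all genes. That call was lost without periportal fed replicate 1 or periportal 24 h replicate 2 or 3 (adjusted p 0.0742 to 0.128). With 6 genes tested, the list is too short to set these counts apart from the shares of all genes.

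Promoter sequences were available for 7 of the 9 genes, in 15 windows of the 250 bases before each annotated start, and 5 of those that hold one of the motifs searched are shown, so that the letters can be set beside the changes given for these genes below. The sequences are from RefSeq, build GRCm38.p6, written 5′ to 3′ on the gene's strand as the longest stretch outside annotated exons, and capitals mark one motif in each. For Sgk1 (chr10:21993640-21993889, plus strand) capitals mark the core of a glucocorticoid response element, GNACA and TGTNC with any 3 bases between them. For Fkbp5 (chr17:28486150-28486399, minus strand) they mark the E-box CACGTG, for Klf9 (chr19:23140976-23141225, plus strand) the short cyclic AMP motif TGACG, and for Errfi1 (chr4:150854950-150855069, plus strand) and Dusp1 (chr17:26508520-26508722, minus strand) the full cyclic AMP response element TGACGTCA.
Sgk1: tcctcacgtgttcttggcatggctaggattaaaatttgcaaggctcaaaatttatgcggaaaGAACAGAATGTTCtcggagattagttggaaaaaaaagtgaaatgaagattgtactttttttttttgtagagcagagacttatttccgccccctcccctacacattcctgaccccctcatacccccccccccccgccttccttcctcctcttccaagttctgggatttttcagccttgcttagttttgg
Fkbp5: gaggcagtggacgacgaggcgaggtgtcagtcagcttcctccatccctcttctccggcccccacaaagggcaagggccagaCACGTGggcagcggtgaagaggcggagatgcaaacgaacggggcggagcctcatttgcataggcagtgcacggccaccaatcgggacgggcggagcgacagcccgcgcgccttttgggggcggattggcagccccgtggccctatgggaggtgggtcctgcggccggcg
Klf9: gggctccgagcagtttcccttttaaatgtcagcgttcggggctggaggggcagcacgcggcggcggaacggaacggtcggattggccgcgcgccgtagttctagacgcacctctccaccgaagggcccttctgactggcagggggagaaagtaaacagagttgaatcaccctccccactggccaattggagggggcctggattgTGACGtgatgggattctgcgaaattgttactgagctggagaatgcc
Errfi1: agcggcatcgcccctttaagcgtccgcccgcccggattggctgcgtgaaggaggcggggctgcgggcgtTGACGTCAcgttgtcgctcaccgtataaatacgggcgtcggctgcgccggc
Dusp1: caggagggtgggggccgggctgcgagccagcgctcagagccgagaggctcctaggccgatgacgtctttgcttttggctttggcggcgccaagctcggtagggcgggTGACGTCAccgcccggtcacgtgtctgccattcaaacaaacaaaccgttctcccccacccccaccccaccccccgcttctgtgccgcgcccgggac

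The response element core was found in 1 of the 15 windows, that of the Sgk1 start at position 21993890, where GAACAGAATGTTC begins 188 bases before the start. The same element lies 964 bases before the Sgk1 start at 21994666. Motifs were searched on both strands, and 0.387% of 32851 promoter windows of the same length hold the core. The single hexamer AGAACA, found in 16.1% of all windows, lay in windows of Tsc22d3 and Sgk1, and in the Sgk1 window shown 2 of its 3 matches overlap the core. The full cyclic AMP element, found in 1.55% of all windows, begins 51 bases before one Errfi1 start and 143 bases before the Dusp1 start. The short motif TGACG, which the full element contains, is in 17.8% of windows and begins 46 bases before the Klf9 start. It was also found in a window each of Tsc22d3 and Sgk1 and once more in that of Dusp1. The E-box, in 6.02% of windows, begins 169 bases before the Fkbp5 start, 246 bases before the Sgk1 start shown and 126 bases before the Dusp1 start. A match describes letters in these windows and is no measured binding site. Nr3c1 and Zbtb16 had no promoter sequence available. Sequence outside the windows was not searched, so a window without a match does not show that a gene lacks an element.

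Fkbp5 (ENSMUSG00000024222, chr17:28399094-28517527, minus strand) rose in both zones. Pericentral libraries held 34.3, 47.9 and 56.5 CPM fed, 86.8, 140 and 147 CPM after 8 h, and 186, 118 and 144 CPM after 24 h. Periportal libraries held 40.4, 38.4 and 45.5 CPM fed, 46.7, 202 and 307 CPM after 8 h, and 205, 279 and 229 CPM after 24 h. In each zone every fasted library was above every fed one, although periportal 8 h replicate 1 cleared the highest periportal fed library by little. Fkbp5 rose 4.47-fold at 8 h (log2 2.16, SE 0.48, adjusted p 0.00862) and 5.73-fold at 24 h (log2 2.52, SE 0.49, adjusted p 0.00271) in periportal cells, and 3.23-fold at 24 h in pericentral cells (log2 1.69, SE 0.47, adjusted p 0.021). The pericentral 8 h value of 1.43 (SE 0.47) did not pass (adjusted p 0.0602), but passed without periportal 8 h replicate 1 (adjusted p 0.000926) or replicate 3 (0.0357). Those libraries are not in that contrast and enter only through steps shared by all libraries, such as the filter, scaling, spread and adjustment. The pericentral 24 h call was lost without pericentral fed replicate 1 or 2 or pericentral 24 h replicate 1 (adjusted p 0.0584 to 0.0806), and the periportal 8 h call in a fit of its 6 libraries alone (adjusted p 0.104).

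Zbtb16 (ENSMUSG00000066687, chr9:48654297-48836222, minus strand), which encodes the zinc finger repressor PLZF, had the widest range of the 9 genes, 19.8-fold between its lowest and highest library. Pericentral libraries held 3.11, 18.2 and 14.4 CPM fed, 35.6, 53.9 and 46 CPM after 8 h, and 52.2, 22.1 and 25.4 CPM after 24 h. Periportal libraries held 5.49, 5.27 and 7.75 CPM fed, 15.3, 61.7 and 59.1 CPM after 8 h, and 33.9, 51.3 and 49.4 CPM after 24 h. Fed and fasted libraries did not overlap within a zone, and pericentral fed replicate 1 stood well below its group. In periportal cells Zbtb16 rose 7.33-fold at 8 h (log2 2.87, SE 0.62, adjusted p 0.0073) and 7.26-fold at 24 h (log2 2.86, SE 0.62, adjusted p 0.00558). In pericentral cells it rose 3.81-fold at 8 h (log2 1.93, SE 0.59, adjusted p 0.043) and its 24 h value was 1.49 (SE 0.58, adjusted p 0.0862). The pericentral 8 h call was close to the threshold: it was lost on leaving out 13 of the 18 libraries in turn (adjusted p 0.0517 to 0.114) and held on leaving out pericentral fed replicate 2, periportal 8 h replicate 1 or 2, or pericentral 24 h replicate 1 or 2. The pericentral 24 h value was called without periportal 8 h replicate 1 (adjusted p 0.0485). Zbtb16 followed Fkbp5 over the 18 libraries (r 0.90) and also in deviations from group means (r 0.78). Both genes were lowest of their group in pericentral fed replicate 1 and in periportal 8 h replicate 1.

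Klf9 (ENSMUSG00000033863, chr19:23141226-23168134, plus strand), a Krüppel-like zinc finger factor, rose in all 4 comparisons. Pericentral libraries held 37, 45.3 and 39.4 CPM fed, 125, 131 and 148 CPM after 8 h, and 142, 131 and 148 CPM after 24 h. Periportal libraries held 42.6, 44.1 and 61.2 CPM fed, 135, 129 and 165 CPM after 8 h, and 131, 151 and 125 CPM after 24 h. All 12 fasted libraries were above all 6 fed ones, the 2 libraries that stood apart included. Klf9 rose 3.32-fold at 8 h (log2 1.73, adjusted p 9.82e-07) and 3.47-fold at 24 h (1.79, adjusted p 8.01e-07) in pericentral cells. In periportal cells it rose 2.90-fold at 8 h (1.54, adjusted p 3.42e-06) and 2.74-fold at 24 h (1.46, adjusted p 6.63e-06), each with an SE of 0.14. All 4 calls held under each of the 26 alternatives run for them, with adjusted p up to 0.00152. Its closest genes were Tcp11l2 (r 0.98) and Klhl24 (r 0.97), which within groups followed it less closely (r 0.49 for both).

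Sgk1 (ENSMUSG00000019970, chr10:21882184-21999903, plus strand), a kinase related to AKT that acts on ion channels and transporters, was the scarcest of the 9 genes, with 68 to 411 counts per library. Pericentral libraries held 3.28, 3.47 and 3.31 CPM fed, 10.9, 7.67 and 13.2 CPM after 8 h, and 15, 7.5 and 17.7 CPM after 24 h. Periportal libraries held 5.24, 2.72 and 8.49 CPM fed, 10.1, 13.6 and 11.3 CPM after 8 h, and 11.7, 9.52 and 18.9 CPM after 24 h. Fasted libraries were above fed ones in each zone, with periportal fed replicate 3 close to the fasted values. Sgk1 rose 3.17-fold at 8 h (log2 1.66, SE 0.39, adjusted p 0.00962) and 3.98-fold at 24 h (1.99, SE 0.39, adjusted p 0.00207) in pericentral cells, and 2.43-fold at 24 h in periportal cells (1.28, SE 0.38, adjusted p 0.027). Its periportal 8 h value was 1.08 (SE 0.38, adjusted p 0.0682), which passed without periportal fed replicate 3 (1.55, adjusted p 0.0206) or pericentral 24 h replicate 2 (adjusted p 0.0414). The periportal 24 h call was lost without periportal fed replicate 1 or 2 or periportal 24 h replicate 3 (adjusted p 0.0875 to 0.135), and in a fit of its 6 libraries alone (0.106). The genes most like it were Irs2, the insulin receptor substrate (r 0.92), and the NF-kappa-B inhibitor Nfkbia (r 0.90).

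Tsc22d3 (ENSMUSG00000031431, chrX:140539528-140600659, minus strand), the gene of GILZ, was called in periportal cells at 24 h and in no other comparison. Pericentral libraries held 124, 129 and 148 CPM fed, 148, 144 and 147 CPM after 8 h, and 204, 64.1 and 139 CPM after 24 h. Periportal libraries held 106, 74.5 and 112 CPM fed, 129, 199 and 161 CPM after 8 h, and 216, 161 and 233 CPM after 24 h. The periportal fasted libraries were all above the periportal fed ones, whereas the pericentral groups overlapped and pericentral 24 h replicate 2 was the lowest of all 18. In periportal cells Tsc22d3 rose 2.08-fold at 24 h (log2 1.06, SE 0.30, adjusted p 0.0236), and its 8 h value was 0.74 (SE 0.30, adjusted p 0.119). Without pericentral 24 h replicate 2, which enters only through steps shared by all libraries, the 8 h value passed (adjusted p 0.0162). The 24 h call was lost without periportal fed replicate 1 or 2 or periportal 24 h replicate 1 or 3 (adjusted p 0.0578 to 0.0962).

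Errfi1 (ENSMUSG00000028967, chr4:150853919-150868892, plus strand), the feedback inhibitor of the EGF receptor also called MIG6, was the most abundant of the 9 per kilobase of exon, at 405 CPM per kb on average over the libraries, followed by Hsd11b1 at 201, with Sgk1 lowest at 1.97. Pericentral libraries held 1090, 515 and 702 CPM fed, 1550, 1320 and 1470 CPM after 8 h, and 1950, 1220 and 1730 CPM after 24 h. Periportal libraries held 1150, 1010 and 1340 CPM fed, 1910, 1750 and 1800 CPM after 8 h, and 1740, 1810 and 2060 CPM after 24 h. Within each zone all fasted libraries were above the fed ones. Errfi1 rose 1.88-fold at 8 h (log2 0.91, SE 0.22, adjusted p 0.00892) and 2.12-fold at 24 h (1.09, SE 0.22, adjusted p 0.00192) in pericentral cells, and 1.61-fold at 24 h in periportal cells (0.68, SE 0.22, adjusted p 0.0348). The pericentral 8 h call was lost in a fit of its 6 libraries alone (adjusted p 0.0529). The periportal 24 h call was lost without periportal fed replicate 1 or 2 or any one of the periportal 24 h libraries (adjusted p 0.0511 to 0.128). The periportal 8 h value of 0.65 (adjusted p 0.0546) passed without pericentral fed replicate 1 or 2 or pericentral 24 h replicate 2 (adjusted p 0.0185 to 0.0407). An antisense gene overlaps Errfi1 in the annotation.

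Dusp1 (ENSMUSG00000024190, chr17:26505590-26562128, minus strand), a phosphatase that switches off MAP kinases and also an immediate early gene, was not called with fasting in either zone. Pericentral libraries held 49.4, 76.2 and 60.2 CPM fed, 59.3, 55.2 and 71.9 CPM after 8 h, and 90.5, 22.2 and 83.9 CPM after 24 h. Periportal libraries held 100, 196 and 88.8 CPM fed, 197, 206 and 91.5 CPM after 8 h, and 65.3, 93.5 and 116 CPM after 24 h. The 24 h groups overlapped, while all periportal libraries fed and at 8 h were above the pericentral ones of the same state. Averaged over the states, Dusp1 was 1.97-fold higher in periportal cells (log2 0.98, SE 0.27, adjusted p 0.0195), and in single states the values were 1.05 fed (adjusted p 0.215), 1.41 at 8 h (0.0967) and 0.49 at 24 h (0.67). The 8 h value passed without pericentral 24 h replicate 2 (adjusted p 0.0262). Beside it, 4 of 18 immediate early and heat shock genes tested were called in the same average, all higher in periportal cells (Junb, Ier2, Btg2 and Nr4a1), where 20.3% of all genes were called and 10.3% called higher. Jun was among the genes most like Dusp1 in pattern (r 0.80, and 0.84 within groups). The 8 h library with the highest sum of these genes, periportal replicate 1, held 197 CPM of Dusp1, and their part in the Dusp1 difference was not tested. The annotation overlaps Dusp1 with 4 other genes, among them Ergic1 on the other strand.

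The counts of the 9 genes called between zones were small, and 9 genes are too few to set them apart from the shares of all genes. In the fed state 1 of 9 was called between zones (Hsd11b1), beside 8.01% of all genes, and at 8 h again 1 (Hsd11b1), beside 7.14%. At 24 h 0 were called by edgeR, beside 4.17% of all genes, and Hsd11b1 alone had an unadjusted p under 0.05. DESeq2 called 1 and limma-voom 0. Averaged over the states 3 were called, Hsd11b1, Errfi1 and Dusp1, all higher in periportal cells, beside 20.3% of all genes (10.3% higher). Errfi1 was 1.3-fold higher there (log2 0.38, SE 0.12, adjusted p 0.0409). That call was close to the threshold and was lost on leaving out 14 of the 18 libraries in turn (adjusted p 0.052 to 0.0914), all but pericentral fed replicate 1, periportal fed replicate 2, and replicate 1 of either 24 h group. In the fed state alone its value of 0.60 (adjusted p 0.109) passed without pericentral fed replicate 1 (0.93, adjusted p 0.00882). With both libraries that stood apart left out, the counts were 1, 2, 1 and 3 for fed, 8 h, 24 h and the average, without the shares of all genes in that fit beside them. The 3 genes of the average were then Hsd11b1, Fkbp5 and Dusp1.

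**Figure D4:**
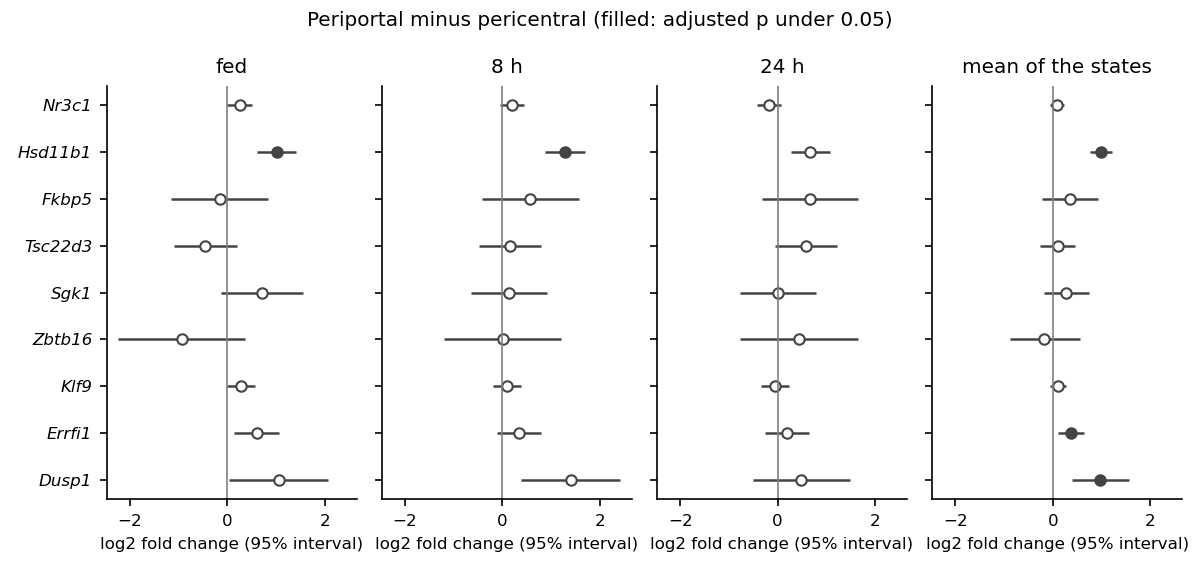
Log2 fold change of periportal over pericentral cells for the 9 genes in each state and averaged over the states, with 95% intervals. Filled points have an adjusted p under 0.05. Hsd11b1 is right of 0 in each panel (1.01, 1.29, 0.67 and 0.99), and the intervals of Fkbp5, Zbtb16 and Sgk1 cross 0 in all of them.

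Whether the zones differed in their fasting response was tested as the periportal change minus the pericentral change. By edgeR 0 of the 9 genes were called at 8 h, beside 0% of all genes, and 0 at 24 h, beside 0.016% of all genes. At an unadjusted p under 0.05 there were 0 and 2, and DESeq2 and limma-voom called 0 in both. The 2 genes at 24 h were Nr3c1, with a difference of -0.43 (95% interval -0.79 to -0.08, p 0.0193, adjusted p 0.536), and Tsc22d3, with 1.03 (0.13 to 1.94, p 0.0279, adjusted p 0.588). For Fkbp5 the 24 h difference was 0.83 (-0.57 to 2.23), and for Zbtb16 it was 1.37 (-0.40 to 3.15). For Klf9 the interval was narrower, with a difference of -0.34 (-0.75 to 0.07). A gene called in one zone and not in the other, such as Tsc22d3 at 24 h, was thus not shown to respond differently between zones.

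Known glucocorticoid-responsive genes of liver outside the 9 also rose with fasting. Of 25 such genes, all tested, 9 rose and 2 fell at 8 h in pericentral cells, and 9 rose and 2 fell in periportal cells. Of all genes, 7.27% and 7.56% were called higher there, and 6.57% and 6.85% lower. At 24 h 15 rose and 3 fell in pericentral cells, and 16 rose and 2 fell in periportal cells. Of all genes, 10.8% and 9.59% were then called higher, and 11.1% and 10% lower. The list medians were 0.63 and 1.10 at 8 h and 1.21 and 1.84 at 24 h, in pericentral and periportal cells in turn. At 8 h the largest rises were in the cell cycle inhibitor gene Cdkn1a (6.71 and 6.42), the metallothionein gene Mt2 (5.34 and 5.37), and, in pericentral cells, Irs2 (3.76) and, in periportal cells, the lipase inhibitor gene Angptl4 (4.27). At 24 h they were in Mt2 (5.29 and 6.88), Cdkn1a (4.37 and 5.15) and Igfbp1, a binding protein of insulin-like growth factors (4.23 and 5.01). Adjusted p for these was at most 0.00235. Cdkn1a at 24 h in pericentral cells did not pass by limma-voom (adjusted p 0.0835), and in a fit of the 6 libraries alone it (0.0596) and pericentral Mt2 at 8 h (0.0535) did not pass. Fed libraries held little Cdkn1a (0.808 and 1.22 CPM on average) and Mt2 (3.37 and 2.26 CPM). Whether reads of Mt2 were mixed with those of its near copy Mt1 was not examined, so the Mt2 level is uncertain.

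Some genes of that list went the other way. Gadd45a fell in all 4 comparisons (log2 -2.66, -2.45, -2.59 and -2.53 for pericentral 8 h, periportal 8 h, pericentral 24 h and periportal 24 h), as did Pik3r1, the regulatory subunit gene of phosphoinositide kinase (-1.08, -0.90, -0.96 and -0.87). Arrdc3 fell at 24 h in pericentral cells (-2.28, adjusted p 0.046), a call lost on leaving out 11 of the 18 libraries in turn (adjusted p 0.0509 to 0.145). Between 8 h and 24 h, 2 of the 25 were called in each zone, a share near that of all genes (9.71% in pericentral and 7.46% in periportal cells). These states also differ in clock hour (21 and 13), and fasting and hour cannot be told apart in this step. Per1, a clock gene known for a glucocorticoid response element that was not searched for here, rose in both zones (1.13, adjusted p 0.000713, in pericentral and 0.94, adjusted p 0.00338, in periportal cells). Klf15 rose in periportal cells (0.75, adjusted p 0.0316, lost without periportal 8 h replicate 1 or periportal 24 h replicate 2 or 3, adjusted p 0.0908 to 0.114). Cdkn1a fell in pericentral cells (-2.33, adjusted p 0.0379, lost without any one pericentral 8 h library or pericentral 24 h replicate 3, adjusted p 0.07 to 0.111). Averaged over the states, 2 of the 25 were higher in periportal cells, beside 10.3% of all genes, and these were the tryptophan dioxygenase gene Tdo2 (0.63, adjusted p 0.0118) and the mRNA decay factor gene Zfp36 (0.96, adjusted p 0.000313). The summed level of the list was 3530 CPM in periportal 8 h replicate 1, where replicates 2 and 3 held 9390 and 9490 CPM and periportal fed libraries 3970 to 4560 CPM.

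**Figure D5:**
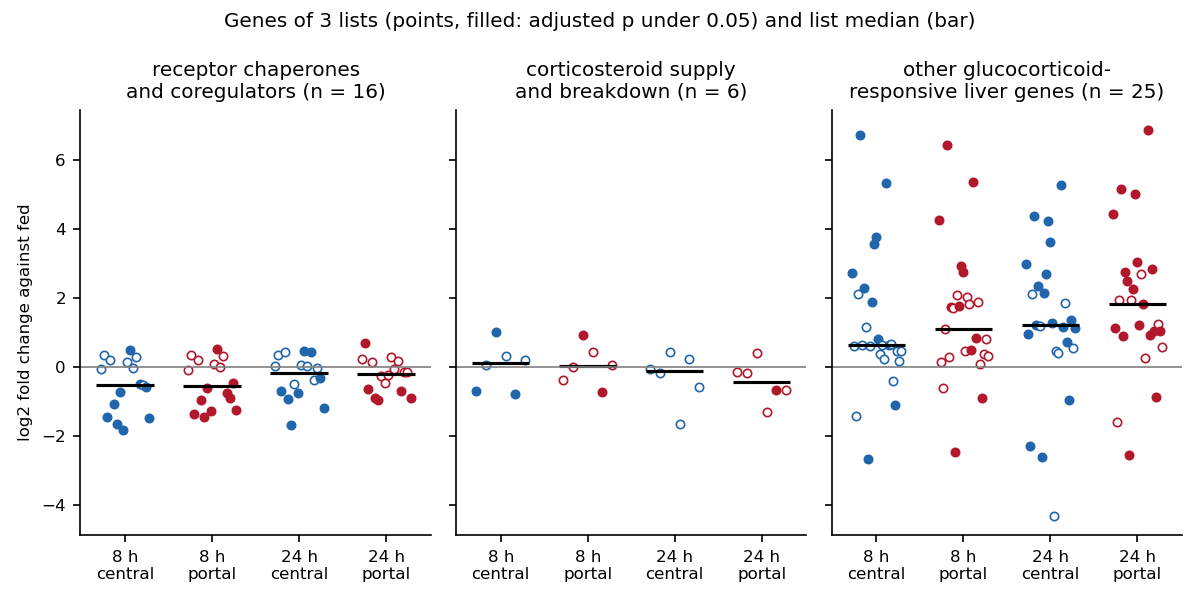
Log2 fold change against fed for each gene of 3 lists, by zone and state (blue, pericentral; red, periportal), with a bar at the list median. Filled points have an adjusted p under 0.05. Receptor chaperones and coregulators have medians of -0.54 to -0.16, and the other glucocorticoid-responsive genes medians of 0.63 to 1.84.

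Among themselves, the targets followed each other over the 18 libraries to different degrees. Sgk1 and Klf9 had r 0.88, Zbtb16 and Klf9 r 0.85, and Sgk1 and Errfi1 r 0.85. Within groups these fell to 0.37, 0.44 and 0.49, whereas Tsc22d3 and Sgk1 were closer within groups (r 0.74) than over all libraries (r 0.60). Nr3c1 ran against 6 targets, with r between -0.71 (Zbtb16) and -0.54 (Errfi1). Within groups its r was -0.02 with Fkbp5, -0.1 with Zbtb16 and 0.23 with Klf9, but -0.38 with Sgk1, -0.45 with Tsc22d3 and -0.5 with Errfi1. The genes nearest to Nr3c1 were the liver transcription factor gene Cebpa (r 0.86) and Shmt1 of serine metabolism (r 0.85). The nearest genes of the others were St3gal5 and Susd6 for Fkbp5 (r 0.94 for both), Gfra1 and Ap4b1 for Zbtb16 (r 0.91 for both), Rsrp1 and Ddit4 for Tsc22d3 (r 0.78 and 0.77), Irf2bp2 and Kmt2c for Errfi1 (r 0.93 and 0.89), and Zc3h13 for Dusp1 (r 0.80). These r values describe 18 libraries that share 6 group means, and no test was made of them.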

How the data were processed

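Total RNA of 18 hepatocyte libraries was measured by RNA-seq. Per the submitters' processing notes, kallisto 0.46.0 and the mouse build mm10 were used. The deposited table holds estimated counts, not normalized, for 28030 Ensembl identifiers, of which 27566 matched a symbol. The annotation, any use of strand and the step from transcripts to genes are not given in the sources used here. Each column name was equal to 1 library's description label, and 0 columns were without a sample. Counts were rounded to whole numbers. The 12477 genes passing filterByExpr held at least 99.95% of counts in each library. One fit of edgeR 4.0.16 (R 4.3.3, TMM, robust quasi-likelihood) with 1 coefficient for each of the 6 groups gave 12 contrasts, with Benjamini-Hochberg adjustment over all genes tested and calls at 0.05. SE is the log2 fold change divided by the square root of F, and intervals are 95%. The edgeR fit was tested on simulated data with 200 changed genes. Library totals were 18359911 to 26384358 counts, and 3 libraries per group limit the precision. Among replicates of the same group, no libraries were found deposited more than once (chi-square per gene 35.9 to 122). Such values are not given for pairs of libraries from different groups.

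The 9 genes, the gene lists and the tests were chosen with earlier results of these data known. Genes named from the 3 pathway lists are up to 3 called per direction in each comparison described, by size. Genes of like pattern are the 2 with the highest r among those with at least 5 CPM (prior count 2). Whether same-numbered libraries deviate together was checked in 9 contrasts. All 3 pairs had r over 0.1 only between the zones at 24 h (0.12, 0.17 and 0.15). An r of 0.21 also occurred between periportal 8 h and 24 h libraries, which were collected at different hours. The numbers were thus not shown to mark pairs. Gene coordinates are of GRCm38, the same assembly as mm10. DESeq2 1.42.0, limma-voom 3.58.1, other scalings and filters, the replicate block and leaving out each library were run as alternatives.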

Additional observations from a re-analysis of the deposited data

How the results depend on the processing

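The counts of the 9 genes called were recomputed under other scalings, filters, tests and subsets of libraries. The share of all genes called under each of these fits is not given here. A change particular to the 9 genes can therefore not be told from one of all genes. With the replicate number as a block, the count was 2 between zones when fed, 1 at 24 h and 1 for 24 h against 8 h in pericentral cells (1, 0 and 0 without it). The block moved no other count by over 1.5 times (6 in periportal cells at 8 h, against 4). No label says that libraries of the same number belong together. Of 27 same-number pairs in all contrasts, 5 had r over 0.1, and r ran from -0.12 to 0.21. With the block, Errfi1 between fed zones (0.63, adjusted p 0.0403), Hsd11b1 at 24 h in pericentral cells against fed (0.48, 0.042) and against 8 h, and periportal Sgk1 (1.21, 0.0136) and Errfi1 (0.65, 0.0225) at 8 h also passed. DESeq2 gave 2 between zones at 8 h, 1 at 24 h and 1 for 24 h against 8 h in pericentral cells. Leaving out both libraries that stood apart, a choice made after seeing the data, gave 2 between zones at 8 h and 1 at 24 h.

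Leaving out each library in turn gave 1 to 2 between zones when fed and at 8 h, 0 to 1 at 24 h and 2 to 3 on average. It gave 3 to 5 in pericentral cells at 8 h and at 24 h, 0 to 1 between them, and 3 to 7 at 8 h and 4 to 7 at 24 h in periportal cells. The 7 at 8 h came without pericentral 24 h replicate 2, and the 4 at 24 h without periportal fed replicate 1 or 2 or periportal 24 h replicate 3. The cause was not tested. The zone differences in response, and the periportal step from 8 h to 24 h, stayed at 0 under each alternative. For 99 fold changes of single genes, 2565 values were recomputed, of which 101 lost and 40 gained a call and 0 were reversed. The gene with the fewest counts, Sgk1, had 68 in its lowest library, so counting error weighs most there.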
